A study of Mus musculus with 7 samples.

Results

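The GIMAP genes encode a family of GTP-binding proteins of lymphocytes, and their RNA was followed in CD8 T cells that had divided under tolerance, priming or lymphopenia. All 8 genes of the family with a probe set under their own symbol were taken (Gimap1, Gimap3, Gimap4, Gimap5, Gimap6, Gimap7, Gimap8 and Gimap9), each with every probe set annotated to that single symbol. They have 11 probe sets among the 34958 on the array that carry 1 gene symbol, and they are 8 of 18194 genes. The cells were OT-I cells, CD8 T cells with a transgenic receptor for a peptide of chicken ovalbumin, of C57BL/6 background and marked by Ly5.1. CD44lo OT-I cells were loaded with the division dye CFSE and injected into hosts of 4 kinds. In RIP-OVAhi hosts a rat insulin promoter drives ovalbumin, a model of deletional tolerance, and their cells came from sacral and pancreatic lymph nodes of 20 pooled mice per array (n = 2 arrays). OCS/LPS hosts were primed with ovalbumin-coated splenocytes and lipopolysaccharide (n = 2), Rag hosts are Rag-/- mice without T or B cells of their own, in which transferred cells proliferate (n = 1), and B6 hosts without antigen gave the undivided naive cells (n = 2). These 3 groups came from spleens of 10 pooled mice per array. Divided cells had gone through at least 2 divisions; cells were sorted after 60 h, or after 5 days in Rag hosts. Ages are not stated in the labels.

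GIMAP stands for GTPase of immunity-associated protein. The proteins share a GTP-binding domain of the AIG1 type, many sit on membranes of the cell's interior, and the genes lie side by side as a cluster in mammals. They are known above all for lymphocyte survival: mice without functional Gimap5 lose peripheral T cells, and Gimap1 is needed by mature T and B cells. Gimap3 and Gimap5 have been tied to anti-apoptotic members of the BCL2 family, Gimap4 to faster T cell death, and human GIMAP6 to autophagy through the protein GABARAPL2.

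In the RefSeq annotation of GRCm38.p6 the cluster holds 8 protein-coding genes on chromosome 6, with no other protein-coding gene between them. Their order is Gimap8, Gimap9, Gimap4, Gimap6, Gimap7, Gimap1, Gimap5 and Gimap3, with Gimap6 and Gimap3 on the minus strand and the others on the plus strand. The arrays themselves carry no genome build.

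The sorted cells read as CD8 T cells on every array. The 7 T cell markers on the array reached log2 5, the level below which a value is called near background here, on at least 2 arrays, and their summed level was 15.10 to 15.31 on the log2 scale. Cd8a, a chain of the CD8 coreceptor, lay at 12.59 to 13.23, while Cd4 stayed at 3.23 to 3.47. Some GIMAP genes are also expressed by B cells and endothelium. The B cell genes Cd79a, Pax5, Blk and Ebf1 stayed below log2 5 on all 7 arrays, and so did the endothelial genes Cdh5, Kdr, Tek, Emcn and Lyve1. The sixth endothelial marker, Pecam1, which leukocytes also express, read 5.52 and 5.57 on the RIP-OVAhi arrays, 5.22 and 5.21 on those of OCS/LPS, 4.57 on the Rag array, and 5.22 and 4.64 on the naive arrays. The other B cell markers, Cd79b, Ms4a1 and Cd22, were detected, and the summed level of the 7 B cell markers was 8.51 and 9.01 on the RIP-OVAhi arrays, 9.32 and 9.72 on those of OCS/LPS, 7.39 on the Rag array, and 7.66 and 8.63 on the naive arrays. The summed level of 8 myeloid and dendritic markers was 6.41 and 6.15 on the RIP-OVAhi arrays, 8.31 and 8.85 on those of OCS/LPS, 9.94 on the Rag array, and 8.41 and 9.08 on the naive arrays. The part of these B cell, endothelial and myeloid transcripts in the GIMAP values was not tested. Tissue and group coincide for RIP-OVAhi, so they cannot be told apart.

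By their main probe sets, the brightest of each gene, all 8 GIMAP genes were present at log2 8.67 or more on every array, in divided as in naive cells. The second sets of Gimap6 and Gimap7 read as low as 8.26 and 4.74. By the main probe sets and relative to naive cells, 1 of the 8 fell in RIP-OVAhi (Gimap8), 1 rose in OCS/LPS (Gimap7) and 0 were called in the Rag array. In each comparison the other members were not called by these sets. Differences were fitted with limma over all 7 arrays and all 8203 tested genes, 1 probe set per gene, and called at a Benjamini-Hochberg adjusted p under 0.05. Among all tested genes 11.6% were called lower and 18.1% higher in RIP-OVAhi against naive, and 12.3% lower and 20.5% higher in OCS/LPS against naive. The Rag array, with 1 sample, had 2.15% called higher and 0.585% lower against naive cells. With 8 members, 1 call in either group is close to these shares. For Gimap7 both RIP-OVAhi arrays lay above both naive arrays (37.0% of tested genes), and for Gimap8 and Gimap9 below them (29.0%). In OCS/LPS 4 members lay above both naive arrays, Gimap4, Gimap6, Gimap7 and Gimap9 (39.4% of tested genes), and Gimap8 lay below them (28.6%). In the Rag comparison 0 members had an unadjusted limma p under 0.05 by their main probe sets either. These comparisons share the 2 naive arrays. In sorted pools, fewer cells with a transcript and less transcript per cell cannot be told apart.

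**Figure D1:**
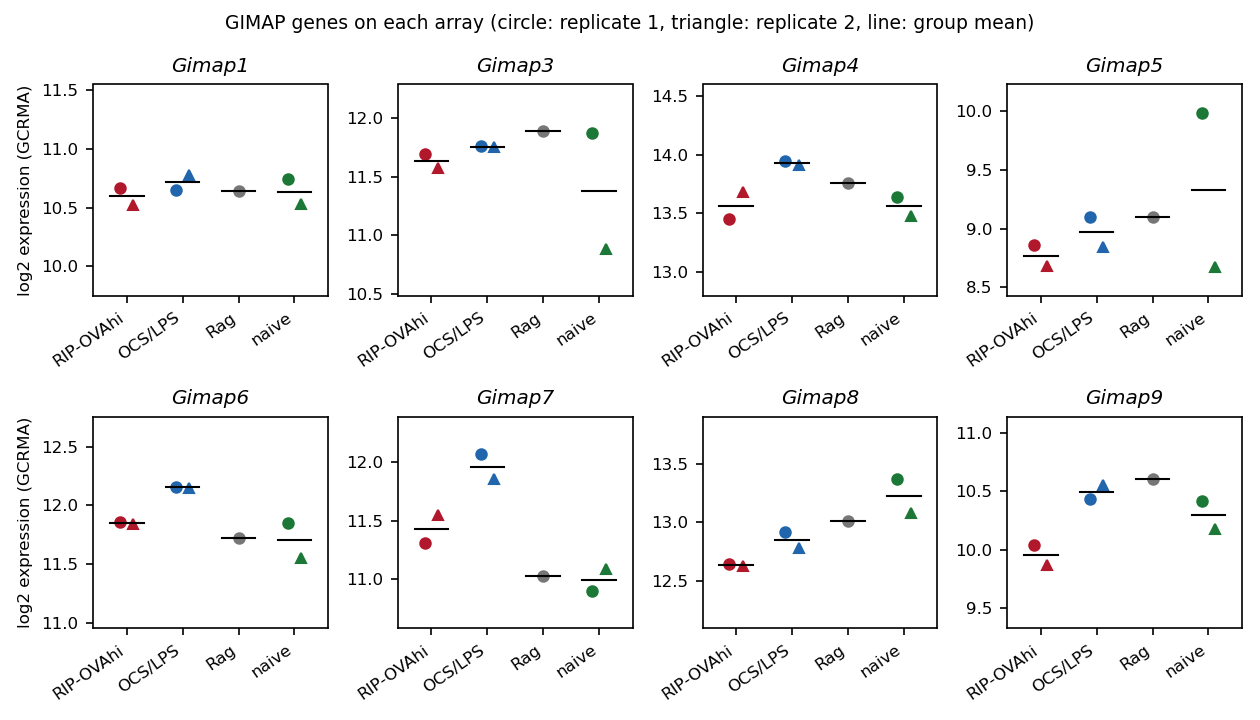
Log2 expression (GCRMA) of each GIMAP gene, by its main probe set, on the 7 arrays, with groups along the x axis. Circles are replicate 1, triangles replicate 2, and lines group means. Every panel spans the same log2 range. Gimap7 stands highest in OCS/LPS (12.07 and 11.85), Gimap8 lowest in RIP-OVAhi (12.64 and 12.63), and the naive arrays lie far apart for Gimap3 and Gimap5.

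By the main probe sets, the members differed in how far their group means spread. The span from the lowest to the highest of the 4 group means was 0.12 for Gimap1, narrower than in all but 3% of tested genes. It was 0.37 for Gimap4, 0.46 for Gimap6, 0.51 for Gimap3, 0.56 for Gimap5, 0.59 for Gimap8 and 0.65 for Gimap9. Gimap7 had the widest span of the 8, at 0.97, wider than in 74.7% of tested genes. The median span was 0.59 over all tested genes and 0.47 over the 1949 tested genes with a mean log2 of at least 10.

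Gimap5 and Gimap3 are the members most closely linked to T cell survival. Gimap5 read 8.86 and 8.68 on the RIP-OVAhi arrays, 9.10 and 8.84 on those of OCS/LPS, 9.10 on the Rag array, and 9.99 and 8.67 on the naive arrays. The 5 arrays of divided cells lay close together, whereas the naive arrays were 1.32 apart, a gap larger than in 98.7% of tested genes. The difference from naive was -0.56 in RIP-OVAhi (95% interval -1.57 to 0.45, adjusted p = 0.351), and OCS/LPS differed by -0.36 (-1.36 to 0.65, adjusted p = 0.537). Its sign rested on 1 array: without naive replicate 2 the RIP-OVAhi difference was -1.22 (adjusted p = 0.00824), and without naive replicate 1 it was 0.10 (adjusted p = 0.655). These data therefore give no direction for Gimap5 against naive cells.

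Gimap3, a close paralogue of Gimap5, read 11.69 and 11.57 on the RIP-OVAhi arrays, 11.76 and 11.75 on those of OCS/LPS, 11.89 on the Rag array, and 11.87 and 10.88 on the naive arrays. Here the second naive array stood low and the other 6 arrays lay between 11.57 and 11.89. For Gimap5 it was the first naive array, at 9.99, that stood apart, above all others. The difference from naive was 0.25 in RIP-OVAhi (95% interval -0.50 to 1.01, adjusted p = 0.58) and 0.38 in OCS/LPS (-0.38 to 1.14, adjusted p = 0.382). Without naive replicate 1 these were 0.74 and 0.87 (adjusted p = 0.00995 and 0.00633), and without naive replicate 2 they were -0.24 and -0.11 (adjusted p = 0.141 and 0.441). The replicate pairs of the divided groups did not show such gaps, and Gimap3 differed by 0.12 within RIP-OVAhi. The naive pair was further apart across the array too. Over all tested genes its median gap was 0.27, against 0.12 in RIP-OVAhi and 0.12 in OCS/LPS. The model pools the spread of all pairs for each gene. The arrays numbered 1 and 2 differ in the female transcript Xist in all 3 duplicated groups (2.67 to 2.74 on the arrays numbered 1 and 12.73 to 13.01 on those numbered 2). Kdm5d, a gene of the Y chromosome, ran the other way (8.79 to 8.82 and 2.57 to 2.64). By these 2 transcripts the number goes with the sex of the cells, also in the pairs without a Gimap3 gap. The part of sex in the naive gap was not tested.

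Gimap1, whose product is required for mature lymphocytes, was the steadiest member. It read 10.67 and 10.52 on the RIP-OVAhi arrays, 10.65 and 10.78 on those of OCS/LPS, 10.64 on the Rag array, and 10.74 and 10.53 on the naive arrays. The arrays of the groups overlapped throughout. The 95% interval of the difference from naive was -0.38 to 0.30 in RIP-OVAhi, -0.26 to 0.41 in OCS/LPS and -0.41 to 0.42 in Rag, so a change of 2-fold in either direction lay outside all 3.

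Gimap4, which in T cells has been associated with faster apoptosis, read 13.45 and 13.68 on the RIP-OVAhi arrays, 13.95 and 13.91 on those of OCS/LPS, 13.76 on the Rag array, and 13.64 and 13.48 on the naive arrays. Both OCS/LPS arrays stood above all others. The OCS/LPS difference from naive was 0.37 (95% interval 0.04 to 0.70, adjusted p = 0.0859) and was not called, and the RIP-OVAhi difference was 0.01 (-0.33 to 0.34). Its other probe set, 1424374_at, gave 0.50 in OCS/LPS (SE 0.14, adjusted p = 0.0398 over all 13853 tested probe sets), which was called; 19.6% of probe sets were called higher there. The main probe set, 1424375_s_at, carries the suffix Affymetrix gives to sets whose probes match more than 1 transcript.

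Gimap6, the member tied to autophagy, had its highest values in OCS/LPS as well by its main probe set, 1427891_at. It read 11.86 and 11.84 on the RIP-OVAhi arrays, 12.16 and 12.15 on those of OCS/LPS, 11.72 on the Rag array, and 11.85 and 11.55 on the naive arrays. The OCS/LPS difference from naive was 0.46 (95% interval 0.11 to 0.80, adjusted p = 0.0526), which just missed the threshold, and it was called without naive replicate 1 (0.61, adjusted p = 0.0112). The RIP-OVAhi difference was 0.16 (-0.19 to 0.50, adjusted p = 0.448). Its second set, 1456762_at, went the other way in OCS/LPS against naive (-0.91, limma adjusted p = 0.00601) and was called lower. In that fit over all probe sets 12.8% were called lower. With the mean of the 2 sets the OCS/LPS difference from naive was -0.23 (adjusted p = 0.178). The direction of Gimap6 thus differed by probe set.

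Gimap7 rose in primed cells by its main probe set; the human protein hydrolyses GTP when it pairs with itself or a relative. It read 11.31 and 11.55 on the RIP-OVAhi arrays, 12.07 and 11.85 on those of OCS/LPS, 11.03 on the Rag array, and 10.90 and 11.09 on the naive arrays. The order OCS/LPS, RIP-OVAhi, then Rag and naive held array by array, and Rag lay between the naive arrays. OCS/LPS cells had 1.96-fold the naive level (log2 0.97, SE 0.16, adjusted p = 0.00667, n = 2 per group) and 1.90-fold the level of the Rag array (log2 0.93, SE 0.19, adjusted p = 0.0259); 11.2% of tested genes were called higher in OCS/LPS than in Rag and 6.90% lower. With the mean of the gene's 2 probe sets the difference from naive was 0.17 (adjusted p = 0.347). The call against naive was also lost without OCS/LPS replicate 1 (0.85, adjusted p = 0.057), and that against Rag when any 1 RIP-OVAhi or OCS/LPS array was left out (adjusted p = 0.0672 to 0.125) or the replicate number was added as a block (0.90, adjusted p = 0.0567). The RIP-OVAhi difference from naive was 0.44 (95% interval 0.06 to 0.82, adjusted p = 0.0838) and was not called.

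Gimap8, a large member with several GTP-binding domains, fell in cells undergoing deletional tolerance. It read 12.64 and 12.63 on the RIP-OVAhi arrays, 12.92 and 12.78 on those of OCS/LPS, 13.01 on the Rag array, and 13.37 and 13.08 on the naive arrays. Each divided array lay below both naive arrays, and both RIP-OVAhi arrays lay lowest. RIP-OVAhi cells had 0.664-fold the naive level (log2 -0.59, SE 0.14, adjusted p = 0.0276, n = 2 per group). The estimate was -0.60 or -0.59 without either RIP-OVAhi or either OCS/LPS array, and the call was lost in each case (adjusted p = 0.0656 to 0.149). In OCS/LPS the difference from naive was -0.37 (95% interval -0.72 to -0.02, adjusted p = 0.0979), and in Rag it was -0.21 (-0.65 to 0.22).

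The start regions of the 2 called genes are printed for comparison of their motifs: 250 bases before and 50 after the annotated start, 5′ to 3′ on the gene's strand, from RefSeq on GRCm38.p6. Gimap7 lies at chr6:48718371-48718670 and Gimap8 (the upstream one of its 2 annotated starts) at chr6:48646984-48647283, both on the plus strand. Capitals mark matches, on either strand, to short motifs of factor families named among the naive-cell regulators.
Gimap7: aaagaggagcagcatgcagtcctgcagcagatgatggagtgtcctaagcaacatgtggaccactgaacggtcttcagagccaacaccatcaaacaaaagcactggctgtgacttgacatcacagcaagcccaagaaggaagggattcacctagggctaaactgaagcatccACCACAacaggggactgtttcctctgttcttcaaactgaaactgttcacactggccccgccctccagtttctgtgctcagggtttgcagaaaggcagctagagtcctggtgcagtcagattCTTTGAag
Gimap8: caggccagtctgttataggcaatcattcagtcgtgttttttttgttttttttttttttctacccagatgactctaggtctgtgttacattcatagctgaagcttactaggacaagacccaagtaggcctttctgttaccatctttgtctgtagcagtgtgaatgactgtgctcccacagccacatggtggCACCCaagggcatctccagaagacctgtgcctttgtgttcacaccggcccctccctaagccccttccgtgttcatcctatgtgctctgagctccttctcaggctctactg
The Gimap7 window holds TGTGGT, the RUNX core (as its reverse complement), and CTTTGA, bound by TCF and LEF factors, while Gimap8 holds CACCC, bound by Krüppel-like factors. No marked motif overlapped another in either window. Of 32851 mouse promoter windows of this length, TGTGGT occurs in 16.8%, CTTTGA in 16.0% and CACCC in 57.5%. Over the 9 windows of the 8 GIMAP genes, of which the 2 of Gimap8 overlap each other, CACCC occurred in 6, the ETS core GGAAGT in 4 (23.8% of all windows), TGTGGT in 3 and CTTTGA in 2. The forkhead motif GTAAACA (3.65% of all windows) and the RBPJ motif GTGGGAA (6.38%), which overlaps a CACCC there, occurred only in the Gimap3 window, and the GATA motif AGATAA (11.2%) in none of the 9. These are letter matches and say nothing of binding.

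Gimap9 is a lesser-known member that lies beside Gimap8 and Gimap4. It read 10.04 and 9.87 on the RIP-OVAhi arrays, 10.43 and 10.55 on those of OCS/LPS, 10.60 on the Rag array, and 10.42 and 10.18 on the naive arrays. Both RIP-OVAhi arrays lay below every other array, and both OCS/LPS arrays lay above both naive arrays. The difference from naive was -0.35 in RIP-OVAhi (95% interval -0.70 to 0.01, adjusted p = 0.127) and 0.19 in OCS/LPS (-0.17 to 0.54, adjusted p = 0.356). Against the Rag array RIP-OVAhi was lower by an estimate of -0.65 (SE 0.18, adjusted p = 0.0576), which was not called; 6.90% of tested genes were called lower there and 9.84% higher.

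**Figure D2:**
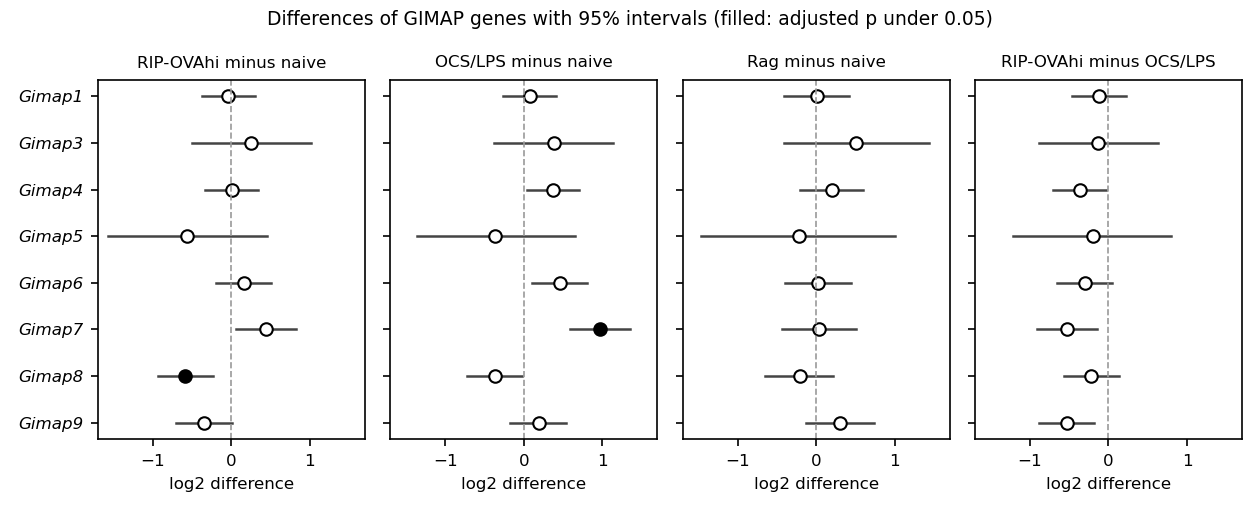
Log2 differences of the 8 GIMAP genes, by their main probe sets, in 4 comparisons (x axis), with 95% intervals as lines. Filled points have an adjusted p under 0.05. Only Gimap8 in RIP-OVAhi minus naive (-0.59) and Gimap7 in OCS/LPS minus naive (0.97) are filled, and the intervals of Gimap3 and Gimap5 are the widest.

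The comparison of tolerance with priming at 60 h sets the cells from RIP-OVAhi hosts directly against those from OCS/LPS hosts. All 8 estimates were below 0, from -0.12 (Gimap1) to -0.53 (Gimap7 and Gimap9), with a median of -0.26; the median of all tested genes was -0.05, and 58.1% of them had an estimate below 0. For 6 of the 8 members both RIP-OVAhi arrays lay below both OCS/LPS arrays, which was the case for 34.0% of tested genes; Gimap1 and Gimap5 overlapped. None lay above them, against 23.5% of tested genes. By limma 0 of the 8 were called, while 1.61% of tested genes were called higher and 1.30% lower. The lowest adjusted p by limma were 0.151 for Gimap9, 0.177 for Gimap7 and 0.261 for Gimap4. The 95% intervals, -0.91 to -0.15 for Gimap7, -0.89 to -0.18 for Gimap9 and -0.70 to -0.03 for Gimap4, held differences of less than 2-fold. The 8 estimates come from the same 4 arrays and are not independent of each other. They are those of the main probe sets: the second set of Gimap7, 1444283_at, gave -1.03 (95% interval -1.42 to -0.65, adjusted p = 0.0385) and was called, and the second set of Gimap6, 1456762_at, gave 0.03.

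The Rag array addresses division without priming by antigen. By the main probe sets its values lay within or close to the naive range. The 8 differences from naive ran from -0.22 (Gimap5) to 0.51 (Gimap3), with a median of 0.03. By these sets the Rag value lay between the 2 naive values for Gimap1, Gimap5, Gimap6 and Gimap7. The second Gimap6 set, 1456762_at, read 8.82 in Rag, below both naive arrays (9.33 and 9.23), a difference of -0.46. The second Gimap7 set, 1444283_at, read 6.62, level with the first naive array (6.61). The Rag array has no replicate. Against it, by the main probe sets, RIP-OVAhi had 0 members called (Gimap9 alone had an unadjusted limma p under 0.05) and a median of -0.23. There the median of all genes was 0.02, and 9.84% were called higher and 6.90% lower. By the same sets OCS/LPS had 1 member called (Gimap7) and a median of -0.02. There the median of all genes was 0.06, and 11.2% were called higher and 6.90% lower. With 8 members, 0 or 1 call is near these shares. By its second set Gimap7 was lower than in the Rag array in both RIP-OVAhi (-1.80) and OCS/LPS (-0.77).

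Gimap4, Gimap6 and Gimap7 have 2 probe sets each, and for Gimap6 and Gimap7 their estimates against naive had opposite signs in both RIP-OVAhi and OCS/LPS. The second Gimap7 set, 1444283_at, read 4.74 and 4.90 on the RIP-OVAhi arrays, 5.96 and 5.75 on those of OCS/LPS, 6.62 on the Rag array, and 6.61 and 6.37 on the naive arrays. Both RIP-OVAhi arrays were near background, both OCS/LPS arrays lay below both naive arrays, and Rag stood level with the first naive array. Fitted over all 13853 tested probe sets, it fell by 1.67 in RIP-OVAhi against naive (SE 0.16, adjusted p = 0.0014) and by 0.63 in OCS/LPS against naive (SE 0.16, adjusted p = 0.0288). In that fit 11.5% of probe sets were called lower in RIP-OVAhi and 12.8% in OCS/LPS. Against the Rag array this set was lower in RIP-OVAhi (-1.80, adjusted p = 0.00437, with 6.33% of probe sets called lower) and in OCS/LPS (-0.77, adjusted p = 0.0484, with 6.41% called lower), while 1425084_at was higher in OCS/LPS (0.93, adjusted p = 0.0324, with 9.35% called higher). It was also lower in RIP-OVAhi than in OCS/LPS (-1.03, SE 0.16, adjusted p = 0.0385, where 0.873% of probe sets were called lower), whereas the main set, 1425084_at, rose in OCS/LPS. The direction of Gimap7 in OCS/LPS against naive thus differed by probe set.

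The second Gimap6 set, 1456762_at, read 8.42 and 8.36 on the RIP-OVAhi arrays, 8.47 and 8.26 on those of OCS/LPS, 8.82 on the Rag array, and 9.33 and 9.23 on the naive arrays. All divided arrays lay below both naive arrays. It fell by 0.89 in RIP-OVAhi (SE 0.14, adjusted p = 0.00739) and by 0.91 in OCS/LPS (SE 0.14, adjusted p = 0.00601), against the main set's uncalled estimates of 0.16 and 0.46. Between RIP-OVAhi and OCS/LPS this set differed by 0.03 (95% interval -0.31 to 0.36). Probe sequences were not used here, so what part of the transcript each set reads, and whether it reads spliced RNA, was not tested.

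**Figure D3:**
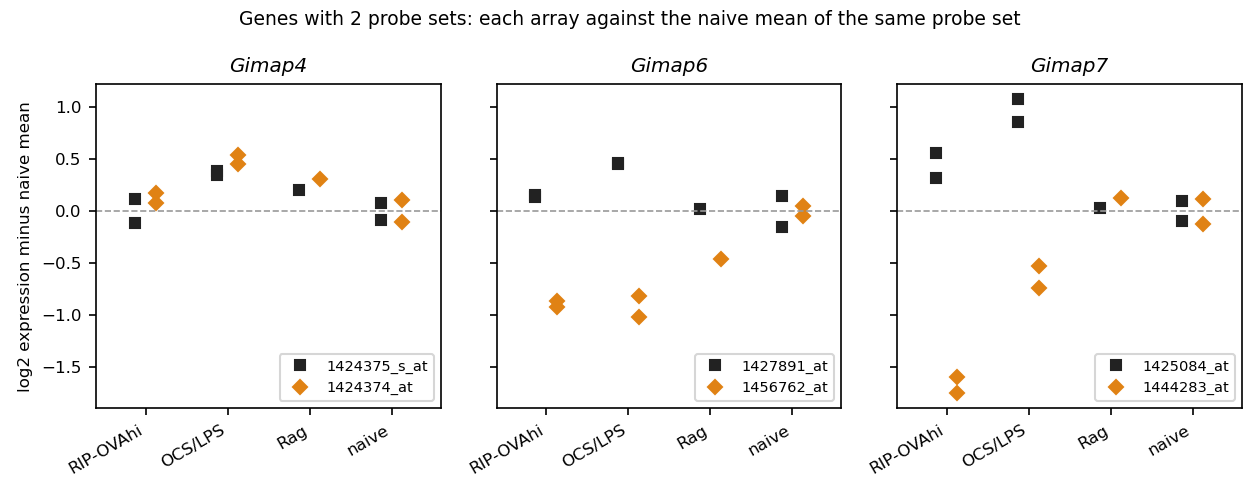
Log2 expression minus the naive mean of the same probe set (y axis) for the 3 genes with 2 probe sets, with groups along the x axis and 1 symbol per array. The 2 sets of Gimap4 run together, whereas 1456762_at of Gimap6 and 1444283_at of Gimap7 lie below 0 in RIP-OVAhi and OCS/LPS where the main sets lie above it.

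Several genes of the survival pathway changed by more than 2-fold. Tested were 12 genes for proteins that GIMAP proteins are reported to bind or act on, or for relatives of these, mostly BCL2 family and autophagy proteins. In RIP-OVAhi against naive 3 of them rose and 1 fell, where 18.1% and 11.6% of all genes did. In OCS/LPS against naive 2 rose and 1 fell, where 20.5% and 12.3% of all genes did. With 12 genes, these counts are near those shares. Bcl2, the anti-apoptotic partner, read 10.50 and 10.15 on the RIP-OVAhi arrays, 9.14 and 9.51 on those of OCS/LPS, 13.24 on the Rag array, and 12.26 and 11.88 on the naive arrays. It fell in both groups, with a difference of -1.74 in RIP-OVAhi (SE 0.22, adjusted p = 0.00302) and -2.75 in OCS/LPS (SE 0.22, adjusted p = 0.000466). Bcl2l1, which encodes the related survival protein BCL-XL, rose by 1.19 in RIP-OVAhi cells and by 1 in those from OCS/LPS hosts. Bcl2l11, which encodes the death protein Bim, rose by 1.28 in RIP-OVAhi (adjusted p = 0.005). Gabarapl1, an autophagy gene, read 6.45 and 6.68 on the RIP-OVAhi arrays, 7.12 and 7.35 on those of OCS/LPS, 5.14 on the Rag array, and 3.61 and 2.81 on the naive arrays, which is near background there. It was called in all 3 comparisons with naive, whereas Gabarapl2, whose human protein binds GIMAP6, was called in none of them.

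Many regulators of naive T cells fell after antigen. Of 20 tested survival receptor and naive-cell regulator genes, 9 fell and 1 rose in RIP-OVAhi against naive and 11 fell and 1 rose in OCS/LPS, with medians of -0.46 and -0.48 against 0.06 and 0.08 over all genes; in Rag 0 were called. The shares of all genes called lower were 11.6% and 12.3%. Il7r, the receptor of the survival cytokine interleukin-7, read 9.69 and 9.30 on the RIP-OVAhi arrays, 10.52 and 10.44 on those of OCS/LPS, 13.01 on the Rag array, and 12.94 and 12.78 on the naive arrays. Its difference from naive was -3.36 in RIP-OVAhi, and OCS/LPS differed by -2.38. Klf3, which encodes a transcriptional repressor, fell too (-1.54 in RIP-OVAhi, -0.55 in OCS/LPS), as did the homing regulator Klf2 (-1.21 in RIP-OVAhi) and the lymph node homing receptor Ccr7 (-0.96 in OCS/LPS). Gata3, a T cell transcription factor gene, rose by 0.97 in RIP-OVAhi cells and by 1.09 in OCS/LPS cells. Foxo1 and Ets1, which encode transcription factors of naive T cells, were not called against naive cells in any group. By the main probe sets, the GIMAP medians in the same comparisons were -0.02 for RIP-OVAhi and 0.28 for OCS/LPS.

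Most tested interferon-inducible GTPase genes, another immune GTPase group, fell in both antigen-driven groups. Of 9 tested, 5 fell and 0 rose in RIP-OVAhi against naive, with a median of -0.84, and 7 fell and 0 rose in OCS/LPS, with a median of -1.33; in Rag 0 were called. Of all tested genes 11.6% fell and 18.1% rose in RIP-OVAhi (median 0.06), and 12.3% fell and 20.5% rose in OCS/LPS (median 0.08). Gbp2, a guanylate-binding protein gene, fell by 1.52 in RIP-OVAhi (SE 0.16, adjusted p = 0.00165) and by 1.79 in OCS/LPS (SE 0.16, adjusted p = 0.000716). Iigp1 fell in OCS/LPS (-1.92, adjusted p = 0.0242). Gbp7 fell too (-1.43 in RIP-OVAhi, -1.62 in OCS/LPS), and so did Irgm1, which encodes an immunity-related GTPase (-1.08 in RIP-OVAhi, -1.33 in OCS/LPS). No test compared these lists with the GIMAP genes.

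**Figure D4:**
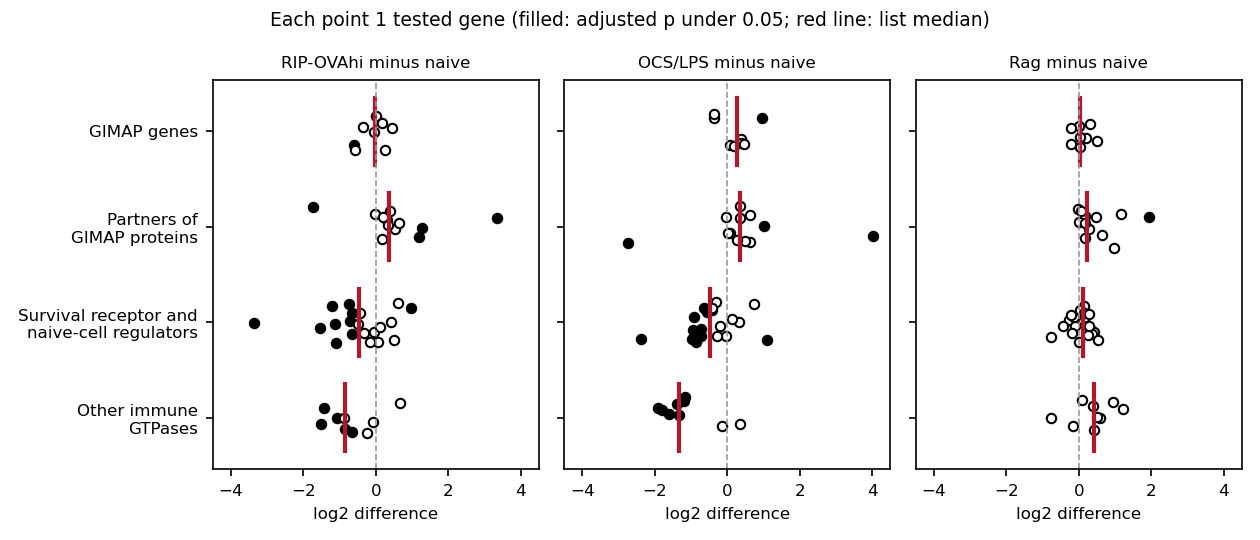
Log2 differences from naive cells (x axis) of each tested gene in the GIMAP family and 3 related lists, in 3 comparisons; filled points have an adjusted p under 0.05 and red lines are list medians. By their main probe sets GIMAP genes stay within -0.59 and 0.97. Il7r (-3.36) and Bcl2 (-2.75 in OCS/LPS) lie far to the left, and the other immune GTPases have medians of -0.84 and -1.33. The second sets of Gimap7 (-1.67 in RIP-OVAhi, -0.63 in OCS/LPS) and Gimap6 (-0.89 and -0.91) are not shown.

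Most genes that flank the cluster were near background. Of the 10 nearest protein-coding genes on each side, 16 were on the array and 5 were tested. Zfp775, next to Gimap8, read 6.27 to 7.08, and Tmem176b, next to Gimap3, stayed near background at 2.90 to 3.29. Among the 5, Krba1 fell by 0.43 in RIP-OVAhi and by 0.48 in OCS/LPS (adjusted p = 0.0386 and 0.0251) around the background level, and the other 4, Zfp746, Lrrc61, Zfp775 and Malsu1, were not called in any comparison.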

How the data were processed

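RNA was measured on Affymetrix mouse arrays. The deposited log2 values cover 45101 probe sets and 7 arrays. Per the submitters' processing notes the authors used GCRMA, of a version not stated here. That method adjusts for background by probe sequence and equalises the distributions of the arrays, which hides any shift common to most genes. The values were used without further normalization. Arrays have no read depth, and their number limits the precision.

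Probe sets were named from the platform annotation (34958 with 1 symbol, 932 with several, 9211 with none); 34754 matched RefSeq by Entrez identifier. The probe set of highest mean stood for each gene, and 8203 genes passed a minimum of log2 5 on 2 or more arrays; all 8 members and their 11 probe sets passed. One limma 3.58.1 model (R 4.3.3, lmFit and eBayes) with a mean per group gave 3 residual degrees of freedom, a prior of 2.93 and a prior SD of 0.156. P-values are two-sided with Benjamini-Hochberg adjustment over all tested genes, SE is moderated, and intervals are 95%. The Rag array was assumed to vary like the others. Nothing states that pools of 1 group were separate experiments, so p-values measure the spread between these arrays. The procedure was tested on simulated data with 200 of 8203 genes changed. Depending on the comparison, it recovered 0.149% to 1.42% of changes of 0.5 on the log2 scale. Of changes of 1 it recovered 11.8% to 43.9%. A difference of these sizes that was not called therefore does not show a lack of change. In the data 1481 genes were called higher and 948 lower in RIP-OVAhi against naive, far more than the simulation changed. In OCS/LPS against naive these were 1685 and 1013. The recovered shares need not hold in those 2 comparisons.

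Alternatives left out arrays, added the replicate number, used other probe set rules, filters, centring, a variance trend, or only the groups compared. Named genes were the members, up to 3 called members per list in each of the RIP-OVAhi and OCS/LPS comparisons with naive (the rule says 3 per list, and counting them per comparison was decided after values were seen), and the genes of most like pattern; Gabarapl2, Foxo1, Ets1 and the flanking genes are named beside them after their values were seen. Members and lists were chosen with earlier results of these data known.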

Additional observations from a re-analysis of the deposited data

Results flagged for a closer look

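Gimap7 differed between kinds of divided cells in a direct test, and differently by probe set. With 1444283_at, fitted by limma over all probe sets, RIP-OVAhi cells were below OCS/LPS cells by -1.03 on the log2 scale (adjusted p = 0.0385) and below the Rag array by -1.80 (adjusted p = 0.00437). The RIP-OVAhi arrays read 4.74 and 4.90 there, under the log2 5 taken as near background, so the sizes of these differences rest on values not above background. OCS/LPS cells were below the Rag array by -0.77 with the same probe set (adjusted p = 0.0484). With 1425084_at OCS/LPS cells were above the Rag array by 0.93 (adjusted p = 0.0324). The 2 sets thus gave opposite directions for OCS/LPS against the Rag array, which has no replicate.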

How the results depend on the processing

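Of 624 alternative values for 48 member differences, 562 kept their sign and their side of the threshold, 20 became called, 16 lost a call and 26 changed sign. Over the 6 arrays left out, members called lower in RIP-OVAhi against naive ranged from 0 to 3 (1 with all arrays) and higher from 0 to 1 (0). In OCS/LPS against naive the ranges were 0 to 3 higher (1) and 0 to 2 lower (0), in Rag against naive 0 to 1 higher (0), in RIP-OVAhi against Rag 0 to 1 lower (0) and in OCS/LPS against Rag 0 to 2 higher (1). In RIP-OVAhi against naive, 2 were called lower with the mean of probe sets, 3 with every probe set, 0 with no filter and 0 with only the 2 groups; centring each array on its median gave 1 higher. In OCS/LPS against naive, centring gave 2 higher, a variance trend 3, and every probe set 2 higher and 2 lower. In RIP-OVAhi against OCS/LPS, the mean of probe sets and every probe set gave 1 lower each. In RIP-OVAhi against Rag, the mean of probe sets gave 2 lower, and the trend and every probe set 1 each. In OCS/LPS against Rag, every probe set gave 1 lower, and the replicate block, the mean of probe sets, no filter and only the 2 groups gave 0 higher. Gimap8 in RIP-OVAhi against naive was called in 7 of 13 alternatives (adjusted p = 0.0107 to 0.149), Gimap7 in 11 of 13 in OCS/LPS against naive (0.00345 to 0.347) and in 5 of 13 in OCS/LPS against Rag (0.0179 to 0.747).

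Signs changed as follows; none of these differences was called in the reported fit. Leaving out 1 array at a time gave, in RIP-OVAhi against naive, -0.15 to 0.06 for Gimap1, -0.24 to 0.74 for Gimap3, -0.11 to 0.12 for Gimap4 (-0.07 without naive replicate 2) and -1.22 to 0.10 for Gimap5. In OCS/LPS against naive it gave -0.03 to 0.18 for Gimap1, -0.11 to 0.87 for Gimap3 and -1.02 to 0.31 for Gimap5. In Rag against naive it gave -0.10 to 0.11 for Gimap1, -0.89 to 0.44 for Gimap5, -0.13 to 0.17 for Gimap6 and -0.06 to 0.13 for Gimap7, and in RIP-OVAhi against Rag -0.12 to 0.03 for Gimap1. With the mean of probe sets the Gimap6 difference from naive was -0.37 for RIP-OVAhi cells, -0.23 for OCS/LPS cells and -0.22 for the Rag array, and against Rag it was -0.15 for RIP-OVAhi cells and -0.0075 for OCS/LPS cells; Gimap7 was -0.61 in RIP-OVAhi against naive and -0.70 against Rag, both called lower (adjusted p = 0.0172 and 0.0334). Centring gave 0.01 for Gimap1 in RIP-OVAhi against naive. The replicate block gave -0.03 for Gimap1 and -0.04 for Gimap6 in Rag against naive, and 0.05 for Gimap3 and 0.16 for Gimap5 in OCS/LPS against Rag. Beyond averaging sets that disagree, the cause was not tested. In RIP-OVAhi against OCS/LPS no member changed sign. The labels do not say that a replicate number marks a shared batch. The number went with the sex of the cells as read by Xist, low on arrays numbered 1 and high on those numbered 2, and by Kdm5d, the reverse. Number and sex cannot be told apart. The single Rag array read 2.67 for Xist and 8.63 for Kdm5d, like the arrays numbered 1. Deviations of same-numbered arrays correlated at 0.348, 0.132 and 0.325 across genes; with the number as a block the OCS/LPS against Rag call of Gimap7 was lost (0.90, adjusted p = 0.0567) and the other calls stayed.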

Other observations

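The mean of the 8 members, each by its main probe set and centred on its own mean, moved little: -0.12 and -0.15 for RIP-OVAhi, 0.19 and 0.14 for OCS/LPS, 0.03 in Rag, and 0.16 and -0.26 in naive cells. Among the 1970 tested genes outside the family whose group means spanned at least 1 on the log2 scale, the 6 with the most similar course over the 7 arrays were Dock5, a guanine nucleotide exchange factor gene (r = 0.88), Gsr, the glutathione reductase gene (0.87), Txndc5 (0.86), Glipr2 (0.81), H2-Q10 (0.77) and the chemokine gene Ccl5 (0.77). Ccl5 read 7.80 and 8 on the RIP-OVAhi arrays, 9.64 and 9.34 on those of OCS/LPS, 9.29 on the Rag array, and 9.01 and 8.63 on the naive arrays. The 4 with the most opposite course were H2-DMa, which encodes a chain of the peptide exchanger of MHC class II loading (r = -0.90), Lztfl1 (-0.87), the Wnt carrier gene Wls (-0.85) and Nucb2 (-0.82). H2-DMa read 8.53 and 8.49 on the RIP-OVAhi arrays, 7.45 and 7.33 on those of OCS/LPS, 7.72 on the Rag array, and 7.92 and 8.56 on the naive arrays. These correlations describe 7 arrays that fall into 4 groups and share the second naive array, which stood lowest; without it, an alternative chosen after seeing the data, they ran from 0.65 (Glipr2) to 0.93 (H2-Q10) and from -0.76 (Lztfl1) to -0.92 (Nucb2).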
